A study of Homo sapiens with 16 samples.

Results

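The genes described here are 44 protein-coding genes that neurons use for synaptic transmission and for building axons, chosen by gene name from known roles in synaptic vesicles, transmitter release, ion channels and the neuronal cytoskeleton. They were taken from a table of 58884 genes, in which all 44 had a row. Of the 44, 34 reached a mean of 0.5 TPM, the length-scaled share of all transcripts, over all libraries and entered the statistical test among 16300 genes, and 10 did not. The choice by name used mean TPM only to divide tested from untested genes, but the list was drawn up with results of both depletions known, so counts over it are descriptions. The cells were 293T, a human embryonic kidney line, wild type apart from the siRNA. Scramble siRNA, SETD2 siRNA and hnRNP L siRNA, all from Dharmacon, were transfected, and the labels give 72 h for all 6 libraries. Each siRNA has 2 RNA-seq libraries, numbered 1 and 2 for scramble and hnRNP L siRNA and 2 and 3 for SETD2 siRNA. SETD2 is the methyltransferase that places the trimethyl mark on lysine 36 of histone H3, and hnRNP L is an RNA-binding splicing regulator with which it interacts. The study's reporting summary calls the 2 libraries of a group independent biological replicates.

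Neurons signal by fusing vesicles filled with transmitter with the presynaptic membrane when calcium enters through voltage-gated channels. Vesicle proteins such as synaptophysin, the SNARE proteins that drive fusion, complexin and synaptotagmin that time it, and the scaffolds of the active zone carry out this release, while neurofilaments and stathmins shape the axon. In many non-neuronal cells such genes are held down by the repressor REST, which recognizes a long DNA element called RE1 or NRSE.

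The core letters of this element, CAGCACCNNGGACA, were searched on both strands from 2 kb before to 2 kb after each gene in hg38. The element was searched because it is known to be shared by many neuronal genes. The list was chosen by name from genes of this kind, so the shares below describe it and are no independent test. A match was present in 18 of the 44 genes (40.9%), against 748 of 19811 protein-coding genes of the table (3.78%) and 429 of 12793 protein-coding genes that were tested (3.35%). Counted by length, the 44 genes held 4.41 matches per Mb and the tested protein-coding genes 0.478. For 3 genes called upregulated below, 3 tested genes that were not and 4 genes under the TPM limit, a match of each is printed here. CACNA1B had 2 matches, of which the nearer to the start is printed. Letters run 5′ to 3′ on the strand of the match. The 14 searched bases are in capitals, and the 2 bases before and 5 after them in lower case. Apart from the letters at N, the capitals are fixed by the search.
SYP: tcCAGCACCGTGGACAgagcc
AP3B2: ttCAGCACCATGGACAgcggg
GNAO1: gcCAGCACCACGGACAtctgc
SYN1: ttCAGCACCGCGGACAgtgcc
INA: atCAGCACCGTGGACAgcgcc
SYT5: atCAGCACCCGGGACAgcgcc
SNAP25: ttCAGCACCGGGGACAgcggt
GRIN1: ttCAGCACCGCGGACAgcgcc
CACNA1B: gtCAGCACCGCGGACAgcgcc
UNC13A: ttCAGCACCGTGGACAgcgcc

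Beyond the searched letters, 19 of the 22 matches outside chromosome 8 had a t just before them, 19 had a g just after them and 13 had gc. These letters were not counted around the matches of other genes. By the canonical transcripts of GENCODE 44, 18 of the 22 lay in introns, 3 in untranslated exons and 1 before the gene. The match of SYP was at chrX:49200127-49200140 (minus strand), 85 bases into the gene and in an intron. In SYN1 it was at chrX:47620075-47620088 (minus strand), before the gene and within its RefSeq promoter window. That of SYT5 was at chr19:55180205-55180218 (minus strand), in an untranslated exon 78 bases from the start, and that of GRIN1 at chr9:137139262-137139275 (plus strand), also in an untranslated exon, 922 bases from the start. Those of INA at chr10:103279013-103279026 (minus strand), UNC13A at chr19:17681758-17681771 (minus strand) and CACNA1B at chr9:137878792-137878805 (minus strand) were in introns between 1016 and 6601 bases from the start. Those of GNAO1 at chr16:56213028-56213041 (plus strand), AP3B2 at chr15:82663320-82663333 (plus strand) and SNAP25 at chr20:10219674-10219687 (plus strand) were in introns between 21644 and 47285 bases from it. In all, 8 of the 22 matches were within 2.5 kb of a start.

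Genes with a match were found among both called and uncalled genes. They were 4 of 11 (36.4%) among the genes called upregulated in either depletion, namely SYP, AP3B2, GNAO1 and NEFM, and 7 of 23 (30.4%) among the other tested genes. They were 7 of 10 (70.0%) among the genes under the TPM limit. Counted by length, the 11 upregulated genes (median length 13.2 kb) held 5.93 matches per Mb. The 23 other tested genes (median length 48.0 kb) held 3.75. BSN is in the first of these sets and STMN2 in the second. Both passed the TPM limit only through depleted libraries, and neither had a match. Whether a match goes with a call was not tested. A match is a run of letters and not a measured binding site.

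**Figure D1:**
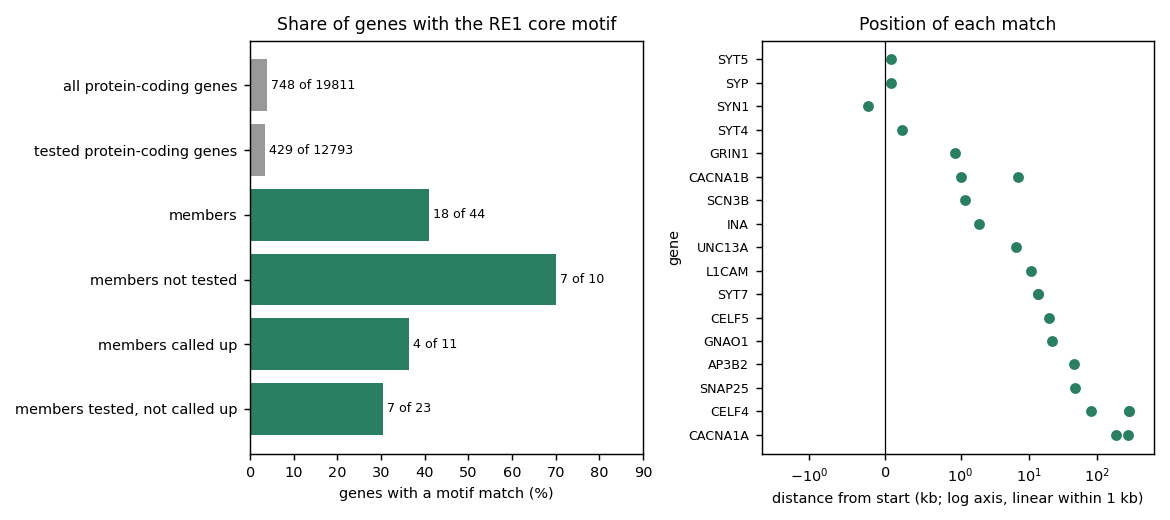
The left panel plots the percentage of genes with the RE1 core letters within the gene and 2 kb on either side, with the counts beside each bar, and the right panel plots the distance of each match outside chromosome 8 from the annotated gene start in kb (log axis, linear within 1 kb). The 44 genes stand at 40.9% and all protein-coding genes at 3.78%. The genes called upregulated, BSN among them, stand at 36.4% and the other tested genes, STMN2 among them, at 30.4%, without regard to gene length.

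In the promoters of RefSeq (250 bases before to 50 bases after the start, GRCh38), which matched 29 of the 44 genes, the core letters were present in SYN1 alone, and in 7 of 10096 tested protein-coding genes (0.07%). The GC box GGGCGG, searched on both strands, was in 22 of 29 (75.9%) of the synaptic promoters and in 71.8% of the 10096 promoters of tested protein-coding genes. Since hnRNP L is known for binding CA repeats, spliced canonical transcripts were also searched for ACACACAC on the sense strand. Introns, whose CA sequences the paper describes as elements that regulate alternative splicing, were not searched. These letters were in 5 of 34 tested genes (14.7%) and in 12.0% of 12802 tested protein-coding genes. Among the 11 genes called upregulated after hnRNP L depletion, SYP was the 1 with these letters.

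Expression of these genes in 293T cells was low. The median of the mean TPM was 3.86 for the 34 tested genes and 9.71 for all 16300 tested genes, with 11 genes at 10 TPM or more, 19 from 1 to 10 and 4 below 1. The 44 genes summed to 460 and 459 TPM in the scramble libraries, 554 and 618 TPM under SETD2 siRNA and 791 and 828 TPM under hnRNP L siRNA. Most of this was the neurofilament genes NEFL and NEFM. Without both, the sums were 193 and 205 TPM under scramble siRNA, 251 and 260 TPM under SETD2 siRNA, and 244 in both libraries with hnRNP L siRNA. Both depletions thus lay above scramble in these sums, whether the neurofilaments were counted or not. TPM keep no read counts, so the depth behind a value is unknown from the files. In bulk RNA, a change in every cell and a change in the share of cells that express a gene cannot be told apart.

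The targeted transcripts fell as the labels say. SETD2 had 13.4 and 11.7 TPM under scramble siRNA and 4.24 and 4.91 TPM under SETD2 siRNA, and HNRNPL had 341 and 457 TPM under scramble siRNA and 25 and 28.8 TPM under hnRNP L siRNA. In limma the log2 fold changes were -1.36 (SE 0.13, adjusted p = 0.00603) for SETD2 and -3.85 (SE 0.14, adjusted p = 8.48e-06) for HNRNPL, each under its own siRNA. REST itself had 7.01 and 6.69 TPM under scramble siRNA, 4.62 and 6.05 TPM under SETD2 siRNA and 4.45 and 5.56 TPM under hnRNP L siRNA. All 4 depleted libraries lay below both scramble libraries. Of all tested genes, 20.6% lay wholly below scramble under SETD2 siRNA and 37.8% under hnRNP L siRNA. In limma the log2 fold changes of REST were -0.34 (SE 0.17, adjusted p = 0.412) and -0.42 (SE 0.17, adjusted p = 0.135), neither past the threshold. Any part of REST in the changes below was not tested. Of 6 neuron markers, TUBB3, RBFOX3 and MAP2 reached 0.5 TPM in some library. The sum of the 6 was 10.3 to 10.7 TPM under scramble siRNA. It was 12.2 to 13.4 TPM under SETD2 siRNA and 14 to 16.3 TPM under hnRNP L siRNA, mostly TUBB3 and RBFOX3. TUBB3 was above scramble in all 4 depleted libraries. RBFOX3 had 3.05 and 1.4 TPM under scramble siRNA, 1.58 and 2.5 TPM under SETD2 siRNA and 4.08 and 4.48 TPM under hnRNP L siRNA. MAP2 overlapped scramble in both depletions. TUBB3, RBFOX3 and MAP2 were not called in either depletion. DCX, ELAVL3 and ELAVL4 were at or near 0 throughout. The sums of 4 astrocyte markers (1.11 to 1.83 TPM), 4 oligodendrocyte markers (0.33 to 0.85 TPM), 5 kidney epithelium markers (4.18 to 5.98 TPM) and 4 fibroblast markers (2.83 to 5.2 TPM) overlapped between the 3 groups, except that the astrocyte sum was 1.41 to 1.77 TPM under scramble siRNA and lower, 1.11 to 1.3 TPM, in both hnRNP L libraries. Of the kidney epithelium markers CDH16 was at 0 in all libraries. The part of these markers in the changes below was not tested.

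Across the group, genes were called when limma on log2(TPM + 0.5) gave a Benjamini-Hochberg adjusted p under 0.05 over all 16300 genes and a fold change above 1.5, and fold changes on this scale understate those of low genes. After SETD2 depletion 5 of the 34 tested genes (14.7%) were upregulated, where 0.0552% of all tested genes were, and 0 were downregulated, where 0.0491% of all were. At an unadjusted p under 0.05 in limma, 14 genes were higher and 4 lower, together 18 of 34, against 13.1% of all tested genes. After hnRNP L depletion 11 of 34 (32.4%) were upregulated, against 1.75% of all, and 2 (5.88%) were downregulated, against 5.01% of all. The median log2 fold change of the 34 genes was 0.23 with SETD2 depleted and 0.38 with hnRNP L depleted, and the medians of all tested genes were 0.01 and -0.08. For hnRNP L minus SETD2 siRNA the median difference was 0.01, and -0.10 for all tested genes. Both depletions are measured against the same 2 scramble libraries. The downregulated share after hnRNP L depletion was close to that of all genes. BSN and STMN2 passed the TPM limit only through depleted libraries, with scramble means below it. Among the other 32 genes, chosen after seeing the data, 5 (15.6%) were upregulated under SETD2 siRNA and 0 downregulated. Of all 15983 tested genes with a scramble mean of at least 0.5 TPM, 6 (0.0375%) were upregulated, these 5 among them, and 0.0501% downregulated. With hnRNP L depleted 10 of the 32 were upregulated (31.2%, against 1.56% of the 15983) and 2 downregulated (6.25%, against 5.11%). The median log2 fold changes of the 32 were 0.21 and 0.29, and those of the 15983 were 0.01 and -0.09.

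Ranges were compared too, counting a gene when both libraries of 1 siRNA lay beyond both of the other. After SETD2 depletion 18 of 34 genes lay wholly above scramble, against 22.9% of all tested genes, and 6 lay wholly below, against 20.6%. After hnRNP L depletion 20 lay wholly above, against 18.8% of all, and 7 wholly below, against 37.8% of all. Without BSN and STMN2 the genes wholly above scramble were 17 and 18 of 32 (53.1% and 56.2%). Of all tested genes with a scramble mean of at least 0.5 TPM, 22.6% and 18.2% were. With hnRNP L against SETD2 siRNA, 12 lay above, against 18.6% of all, and 12 below, against 41.2% of all. With 2 libraries a side, the smallest two-sided p of an exact permutation test on 1 gene is 0.333.

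The counts rested on few libraries, for these genes and for all tested genes. Over all tested genes, fewer were upregulated and fewer downregulated after hnRNP L depletion whichever library was left out. After SETD2 depletion fewer of all tested genes were upregulated without a scramble or hnRNP L library, and more without a SETD2 library. After SETD2 depletion the 5 upregulated genes became 1 without scramble library 1, without scramble library 2 or without SETD2 library 3, 2 without SETD2 library 2, and 3 without hnRNP L library 1 or 2. After hnRNP L depletion the 11 upregulated genes became 5 without scramble library 1, 8 without scramble library 2, 9 without SETD2 library 2 or 3, 5 without hnRNP L library 1 and 4 without hnRNP L library 2. The 2 downregulated genes became 0 or 1 without any 1 library. SYP was called in both depletions whichever library was left out, and so were NEFM and CPLX1 after hnRNP L depletion. For all genes, 286 were upregulated and 816 downregulated after hnRNP L depletion in the deposited TPM, 420 and 528 after median-ratio scaling and 424 and 482 after quantile normalization. For the 34 genes, the 11 upregulated and 2 downregulated became 14 and 0 under either scaling.

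**Figure D2:**
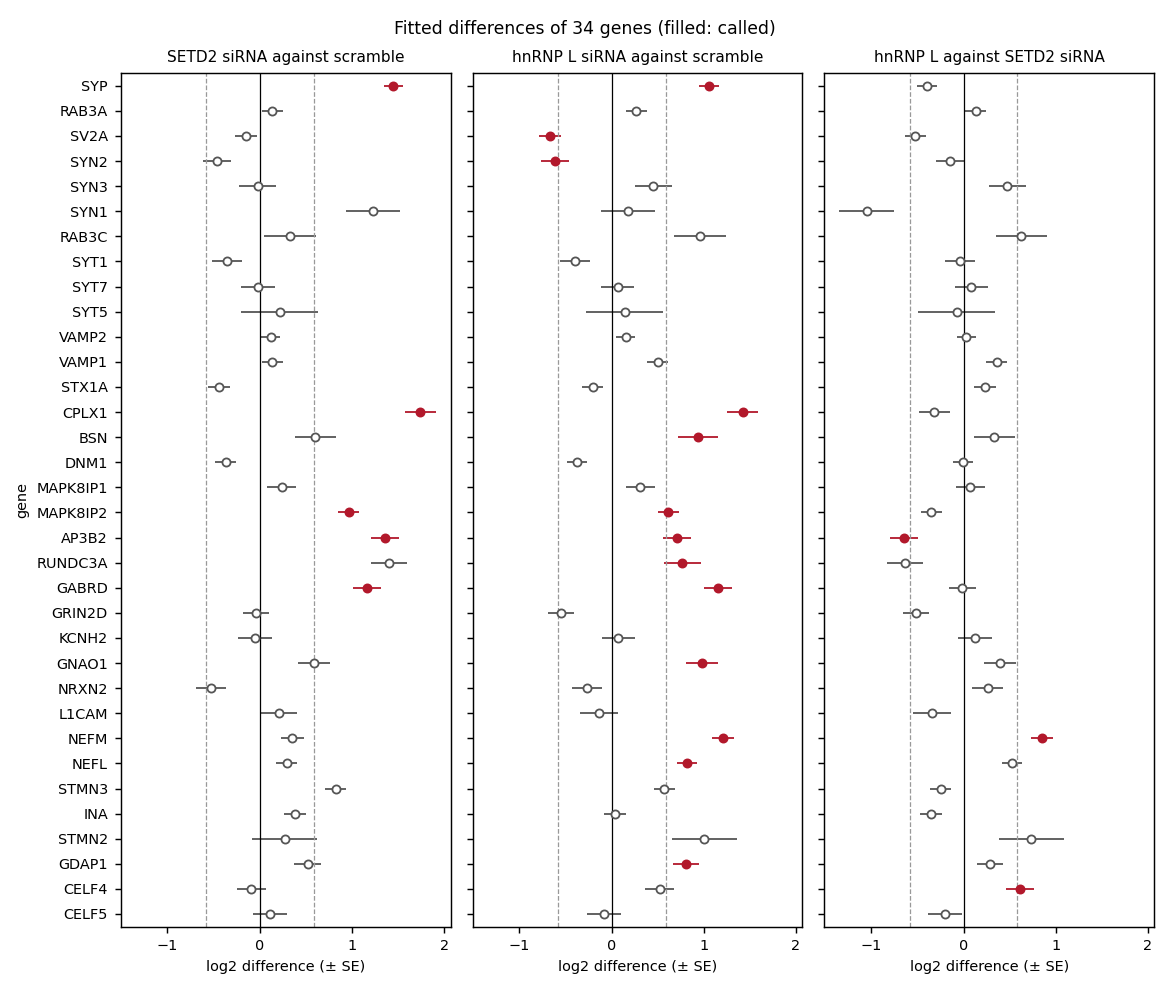
The 3 panels plot the fitted log2 difference of each of the 34 tested genes with its standard error as a bar, for SETD2 siRNA against scramble, hnRNP L siRNA against scramble and hnRNP L against SETD2 siRNA, with filled points for called genes and dashed lines at a fold of 1.5. The 5 filled points on the left are MAPK8IP2, SYP, AP3B2, CPLX1 and GABRD, the middle panel has 13 and the right panel has 3.

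Of 7 genes for the vesicle membrane and the vesicle cluster, all tested, 1 was upregulated in each depletion and 2 were downregulated after hnRNP L depletion. SYP (ENSG00000102003, chrX:49187815-49200218) encodes synaptophysin, an abundant membrane protein of synaptic vesicles. It had 8.59 and 9.21 TPM under scramble siRNA, 25.7 and 24.7 TPM under SETD2 siRNA and 19.1 and 19 TPM under hnRNP L siRNA, with no overlap between any of the 3 groups. SETD2 depletion raised it by a log2 fold change of 1.45 (SE 0.11, adjusted p = 0.00156), and hnRNP L depletion by 1.06 (SE 0.11, adjusted p = 0.00166). Between the depletions the log2 difference was -0.39 (SE 0.11, adjusted p = 0.0481), lower with hnRNP L siRNA but under the 1.5-fold threshold. SYP-AS1, an antisense gene that overlaps it, was at 0 in 5 libraries and at 0.08 TPM in SETD2 library 2.

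The synapsins tether vesicles to each other and to actin, and the 3 genes differed. SYN1 had 0.46 and 1.08 TPM under scramble siRNA, 2.52 and 2.25 TPM under SETD2 siRNA and 1.23 and 0.62 TPM under hnRNP L siRNA. The SETD2 libraries lay above all others, but the scramble libraries were far apart and the log2 fold change was 1.23 (SE 0.30, adjusted p = 0.194), not past the threshold. SYN2 (chr3:12004388-12192032) had 3.85 and 4.26 TPM under scramble siRNA, 2.65 and 2.94 TPM under SETD2 siRNA and 2.48 TPM in both hnRNP L libraries. It was downregulated after hnRNP L depletion (log2 fold change -0.61, SE 0.15, adjusted p = 0.0356) and had a log2 fold change of -0.47 (SE 0.15, adjusted p = 0.262) after SETD2 depletion. The call on SYN2 was lost without any 1 of the 6 libraries (log2 -0.68 to -0.55) and under both other scalings. SYN3 ranged from 1.47 to 2.04 TPM over scramble and SETD2 libraries and was at 2.51 and 2.61 TPM under hnRNP L siRNA, and no comparison passed the test.

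SV2A (chr1:149903318-149917844), a vesicle glycoprotein bound by antiepileptic drugs, had 11.9 and 10.9 TPM under scramble siRNA, 9.83 and 10.6 TPM under SETD2 siRNA and 6.86 and 7.09 TPM under hnRNP L siRNA. The hnRNP L libraries lay below the other 4, and the SETD2 libraries just below scramble. After SETD2 depletion SV2A had a log2 fold change of -0.14 (SE 0.12, adjusted p = 0.629 in limma), not past the threshold. The log2 fold change was -0.66 (SE 0.12, adjusted p = 0.0125) after hnRNP L depletion, a call lost without scramble library 1 or either hnRNP L library (log2 -0.72 to -0.61 over all libraries left out) and under both other scalings. The small GTPases RAB3A and RAB3C sit on vesicles. RAB3A stayed between 12.6 and 16.5 TPM in all libraries, and RAB3C was at 2.01 and 1.08 TPM under hnRNP L siRNA and between 0.4 and 0.91 TPM elsewhere, a log2 fold change of 0.96 (SE 0.28, adjusted p = 0.0604) that did not pass.

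Among 5 synaptotagmins, the calcium sensors of fusion and related vesicle proteins, none of the 3 tested was called. SYT1, the fast sensor, had 3.9 and 3.5 TPM under scramble siRNA, 2.45 and 3.14 TPM under SETD2 siRNA and 2.72 and 2.65 TPM under hnRNP L siRNA. Both depletions lay below scramble, with log2 fold changes of -0.36 (SE 0.17, adjusted p = 0.396) and -0.40 (SE 0.17, adjusted p = 0.155). SYT7 ranged from 2.16 to 3.01 TPM and SYT5 from 0.41 to 1.46 TPM, with overlapping groups. SYT11 reached at most 0.37 TPM and SYT4 at most 0.15 TPM in any library and were not tested.

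Of 6 genes of the fusion machinery, 4 were tested and CPLX1 was called in both depletions. CPLX1 (ENSG00000168993, chr4:784957-826129) encodes complexin 1, which binds the assembled SNARE complex and clamps and triggers fusion. It had 1.68 and 1.77 TPM under scramble siRNA, 5.97 and 8.02 TPM under SETD2 siRNA and 5.78 and 5.17 TPM under hnRNP L siRNA. All 4 depleted libraries lay far above both scramble libraries. CPLX1 rose by a log2 fold change of 1.74 (SE 0.17, adjusted p = 0.00603) after SETD2 depletion, a call lost without either scramble library or SETD2 library 3 (log2 1.54 to 1.94), and 1.42 (SE 0.17, adjusted p = 0.00306) after hnRNP L depletion.

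None of the SNARE genes was called in any of the 3 comparisons. VAMP2, the vesicle SNARE of fast release, stayed between 27.5 and 32.7 TPM. VAMP1 had 11.9 and 13.6 TPM under scramble siRNA, 14.2 and 13.8 TPM under SETD2 siRNA and 18.5 and 17.8 TPM under hnRNP L siRNA. Its log2 fold change after hnRNP L depletion, 0.50 (SE 0.11, adjusted p = 0.0284), passed the p threshold but not the fold threshold. STX1A, the plasma membrane SNARE, had 11.6 and 11 TPM under scramble siRNA, 7.9 and 8.49 TPM under SETD2 siRNA and 9.96 and 9.48 TPM under hnRNP L siRNA, all depleted libraries below scramble without passing the test (log2 fold changes -0.44, SE 0.12, adjusted p = 0.213, and -0.21, SE 0.12, adjusted p = 0.282). SNAP25, their neuronal partner, was at 0.06 and 0.05 TPM under scramble siRNA, 0.33 and 0.26 TPM under SETD2 siRNA and 0.14 TPM in both hnRNP L libraries, too low to test. CPLX2 was at most 0.11 TPM in any library.

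Of 3 active zone genes only BSN was tested. BSN (chr3:49554477-49671549) encodes bassoon, a giant scaffold of the release site, and had 0.4 and 0.31 TPM under scramble siRNA, 0.69 and 0.91 TPM under SETD2 siRNA and 1.16 and 1.11 TPM under hnRNP L siRNA. The 3 groups did not overlap. The log2 fold change after hnRNP L depletion was 0.94 (SE 0.22, adjusted p = 0.0314), a call lost without either scramble or either hnRNP L library (log2 0.86 to 1.01). After SETD2 depletion BSN had a log2 fold change of 0.60 (SE 0.22, adjusted p = 0.309 in limma), not past the threshold. BSN and STMN2 were the 2 genes whose scramble mean was under 0.5 TPM, so they were tested only because depleted libraries were higher, and nothing is read from their direction. At the limit itself, STMN2 (mean 0.533 TPM) and BSN (0.763 TPM) were just inside and RIMS2 (0.438 TPM), an active zone scaffold, and CACNA1B (0.335 TPM) just outside. UNC13A, which primes vesicles, was at 0.18 to 0.44 TPM and not tested.

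Of 5 genes for vesicle recycling, sorting and axonal transport, 2 were upregulated under SETD2 siRNA and 3 with hnRNP L depleted. AP3B2 (chr15:82659281-82710112) encodes the neuronal β subunit of the AP-3 adaptor, which sorts vesicle cargo. It had 1.55 and 1.59 TPM under scramble siRNA, 5.0 and 4.6 TPM under SETD2 siRNA and 3.04 and 2.75 TPM under hnRNP L siRNA, 3 levels that did not overlap. It rose after SETD2 depletion with a log2 fold change of 1.36 (SE 0.15, adjusted p = 0.0153), and by 0.71 (SE 0.15, adjusted p = 0.0229) in hnRNP L depletion. Its level was lower with hnRNP L than SETD2 siRNA (log2 fold change -0.64, SE 0.15, adjusted p = 0.0323), the 1 of 34 genes called in that direction (2.94%), where 4.69% of all tested genes were. The SETD2 call was lost without either scramble or either SETD2 library (log2 1.3 to 1.41), the hnRNP L call without any 1 of the 6 libraries (0.65 to 0.77), and the difference between depletions without any library of either and under both other scalings.

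MAPK8IP2 (chr22:50600793-50613981), a JNK scaffold that is enriched in brain, had 6.84 and 6.63 TPM under scramble siRNA, 13.8 and 13.4 TPM under SETD2 siRNA and 10.3 and 10.8 TPM under hnRNP L siRNA. Again the 3 groups were separate, in the order scramble, hnRNP L, SETD2. The log2 fold changes were 0.96 (SE 0.11, adjusted p = 0.0196) and 0.61 (SE 0.11, adjusted p = 0.0135). The first call was lost without any 1 of the 6 libraries (log2 0.94 to 0.98) and the second without either scramble or either hnRNP L library (0.58 to 0.65). Its antisense neighbour CHKB, a choline kinase gene that overlaps it, had 26.7 and 26.9 TPM under scramble siRNA, 19.3 and 21.8 TPM under SETD2 siRNA and 30.0 and 29.5 TPM under hnRNP L siRNA, and was not called. By GENCODE 44, 15 of the 44 genes overlap another gene on the same strand and 30 on the other strand. Whether reads were assigned by strand is not given in the sources used here, so reads of such pairs cannot be told apart.

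RUNDC3A (chr17:44308413-44318670), an effector of small GTPases in neurons, had 1.11 and 0.81 TPM under scramble siRNA, 3.79 and 2.95 TPM under SETD2 siRNA and 1.86 and 2.09 TPM under hnRNP L siRNA. It had the larger log2 value after SETD2 depletion, 1.41 (SE 0.20, adjusted p = 0.0529), which missed the threshold, and was called after hnRNP L depletion at 0.77 (SE 0.20, adjusted p = 0.0405). That call was lost without any 1 of the 6 libraries (log2 0.62 to 0.92). MAPK8IP1 ranged from 8.5 to 13.4 TPM and was not called. DNM1, the dynamin of synaptic vesicle retrieval, had 21.1 and 18.9 TPM under scramble siRNA and 15 to 15.7 TPM in the 4 depleted libraries, below scramble in each but not past the test (log2 fold changes -0.37, SE 0.11, adjusted p = 0.24, and -0.37, SE 0.11, adjusted p = 0.0621).

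**Figure D3:**
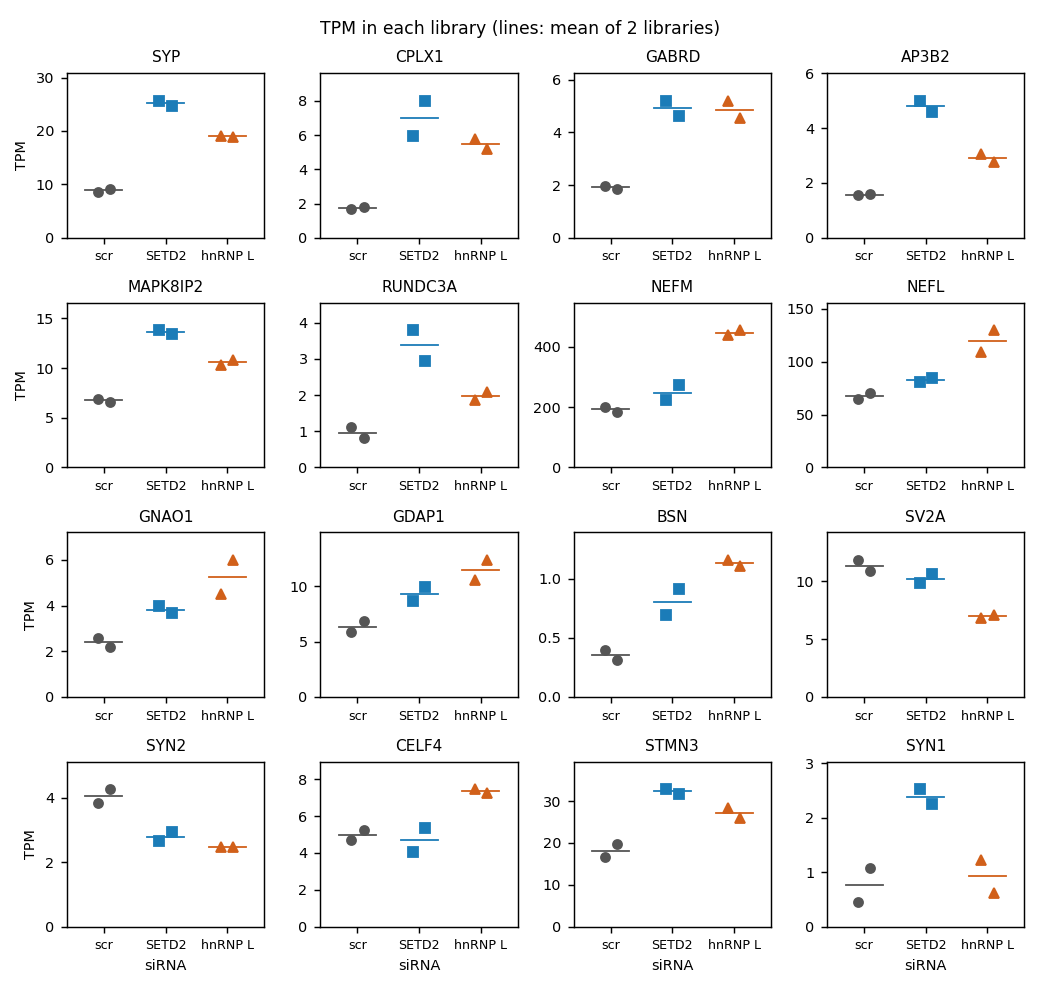
Each panel plots 1 gene, with its TPM from 0 on the vertical axis, 2 libraries as points for scramble (scr), SETD2 and hnRNP L siRNA and their mean as a line. The panels from SYP to BSN, in reading order, and STMN3 lie above scramble in all 4 depleted libraries. NEFM, NEFL, GNAO1, GDAP1, BSN and CELF4 are highest with hnRNP L siRNA, and SYN1 is among those highest with SETD2 siRNA.

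Of 7 receptor and channel genes only 3 were tested, and 1 was called in both depletions. GABRD (chr1:2019329-2030758), the δ subunit of GABA-A receptors outside synapses, had 1.97 and 1.86 TPM under scramble siRNA, 5.21 and 4.62 TPM under SETD2 siRNA and 5.18 and 4.56 TPM under hnRNP L siRNA. The depleted libraries all lay above scramble and overlapped each other. GABRD rose by a log2 fold change of 1.16 (SE 0.15, adjusted p = 0.0305) after SETD2 depletion, a call lost without any 1 of the 6 libraries (log2 1.08 to 1.24) and under both other scalings, and 1.15 (SE 0.15, adjusted p = 0.00427) after hnRNP L depletion, lost without hnRNP L library 1 (1.07 to 1.23 over all libraries left out). GRIN2D, an NMDA receptor subunit, had 4.26 and 4.06 TPM under scramble siRNA, 3.91 and 4.17 TPM under SETD2 siRNA and 2.69 and 2.66 TPM under hnRNP L siRNA. Its log2 fold change after hnRNP L depletion, -0.55 (SE 0.14, adjusted p = 0.0395), was under the fold threshold. KCNH2, the potassium channel of the cardiac action potential that neurons also use, stayed between 1.31 and 1.65 TPM. The NMDA receptor subunit GRIN1 and the sodium channel subunit SCN3B, with the presynaptic calcium channel genes CACNA1A and CACNA1B, reached at most 0.52 TPM in any library and were not tested.

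Of 3 genes for adhesion and G protein signalling, 1 was called, after hnRNP L depletion. GNAO1 (chr16:56191390-56357444), the α subunit of Go, a G protein abundant in brain, had 2.57 and 2.2 TPM under scramble siRNA, 3.97 and 3.67 TPM under SETD2 siRNA and 4.49 and 6.0 TPM under hnRNP L siRNA. The 3 groups did not overlap. GNAO1 had a log2 fold change of 0.58 (SE 0.17, adjusted p = 0.239) after SETD2 depletion, not past the threshold, and 0.98 (SE 0.17, adjusted p = 0.0119) after hnRNP L depletion, a call lost without either scramble library or hnRNP L library 2 (log2 0.79 to 1.17). NRXN2, a presynaptic adhesion molecule, had 2.87 and 2.92 TPM under scramble siRNA, 1.73 and 1.99 TPM under SETD2 siRNA and 2.52 and 2.14 TPM under hnRNP L siRNA, lowest with SETD2 siRNA but not called (log2 fold change -0.53, SE 0.17, adjusted p = 0.257). L1CAM, which guides axons, ranged from 1.0 to 1.84 TPM and no comparison passed.

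Of 5 cytoskeletal genes 2 were upregulated, both neurofilament subunits and both after hnRNP L depletion. NEFM (ENSG00000104722, chr8:24913758-24919098) encodes the medium chain and was the most highly expressed of the 44 genes. It had 202 and 184 TPM under scramble siRNA, 222 and 274 TPM under SETD2 siRNA and 437 and 454 TPM under hnRNP L siRNA. The hnRNP L libraries stood far above the others, while the SETD2 libraries were nearer to scramble. NEFM had a log2 fold change of 0.36 (SE 0.12, adjusted p = 0.277) after SETD2 depletion, which did not pass, and rose by 1.21 (SE 0.12, adjusted p = 0.00166) with hnRNP L depleted. Compared directly, hnRNP L siRNA gave a log2 difference of 0.85 (SE 0.12, adjusted p = 0.00583), 1 of 2 genes of 34 (5.88%) called higher with hnRNP L than SETD2 siRNA, where 2.15% of all tested genes were. That call was lost without SETD2 library 2 or either hnRNP L library (log2 0.70 to 1.01).

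NEFL (chr8:24950955-24956721), the light chain, whose gene neighbours NEFM, had 64.6 and 70.1 TPM under scramble siRNA, 80.5 and 84.6 TPM under SETD2 siRNA and 109 and 129.8 TPM under hnRNP L siRNA. Its order of groups was that of NEFM. Its log2 fold change after SETD2 depletion, 0.29 (SE 0.11, adjusted p = 0.327 in limma), did not pass. The log2 fold change after hnRNP L depletion was 0.82 (SE 0.11, adjusted p = 0.00515), lost without hnRNP L library 2 (log2 0.69 to 0.94 over all libraries left out), and the log2 difference from SETD2 siRNA, 0.53 (SE 0.11, adjusted p = 0.0224), was under the fold threshold. INA, another neuronal intermediate filament, had 8.56 and 9.77 TPM under scramble siRNA, 11.9 and 12.3 TPM under SETD2 siRNA and 9.35 and 9.45 TPM under hnRNP L siRNA. Its hnRNP L libraries lay within the scramble range, and its log2 fold change after SETD2 depletion, 0.39 (SE 0.12, adjusted p = 0.249), did not pass.

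Stathmins bind tubulin. STMN3 had 16.6 and 19.7 TPM under scramble siRNA, 32.8 and 31.8 TPM under SETD2 siRNA and 28.4 and 25.9 TPM under hnRNP L siRNA, all 4 depleted libraries above scramble. The log2 fold change after SETD2 depletion, 0.82 (SE 0.12, adjusted p = 0.0599), missed the p threshold, and that after hnRNP L depletion, 0.57 (SE 0.12, adjusted p = 0.0199), the fold threshold. STMN2 had 0.31 and 0.13 TPM under scramble siRNA, 0.2 and 0.56 TPM under SETD2 siRNA and 1.44 and 0.56 TPM under hnRNP L siRNA, and was not called.

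The last 3 genes are the RNA-binding proteins CELF4 and CELF5 and GDAP1, a mitochondrial protein mutated in Charcot-Marie-Tooth neuropathy. GDAP1 (chr8:74320613-74518007) had 5.84 and 6.86 TPM under scramble siRNA, 8.66 and 9.95 TPM under SETD2 siRNA and 10.6 and 12.4 TPM under hnRNP L siRNA, 3 groups in that order without overlap. Its log2 fold change was 0.80 (SE 0.14, adjusted p = 0.012) after hnRNP L depletion, a call lost without scramble library 1 or either hnRNP L library (log2 0.70 to 0.91). After SETD2 depletion GDAP1 had a log2 fold change of 0.52 (SE 0.14, adjusted p = 0.225 in limma), not past the threshold. CELF4 (chr18:37243040-37565827) had 4.72 and 5.25 TPM under scramble siRNA, 4.03 and 5.35 TPM under SETD2 siRNA and 7.45 and 7.28 TPM under hnRNP L siRNA. It was higher with hnRNP L than SETD2 siRNA (log2 fold change 0.61, SE 0.16, adjusted p = 0.0418), a call lost without any 1 of the 6 libraries (log2 0.43 to 0.80), and its log2 fold change against scramble, 0.52 (SE 0.16, adjusted p = 0.0654), did not pass. After SETD2 depletion CELF4 had a log2 fold change of -0.09 (SE 0.16, adjusted p = 0.836 in limma). CELF5 stayed between 1.65 and 2.45 TPM.

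**Figure D4:**
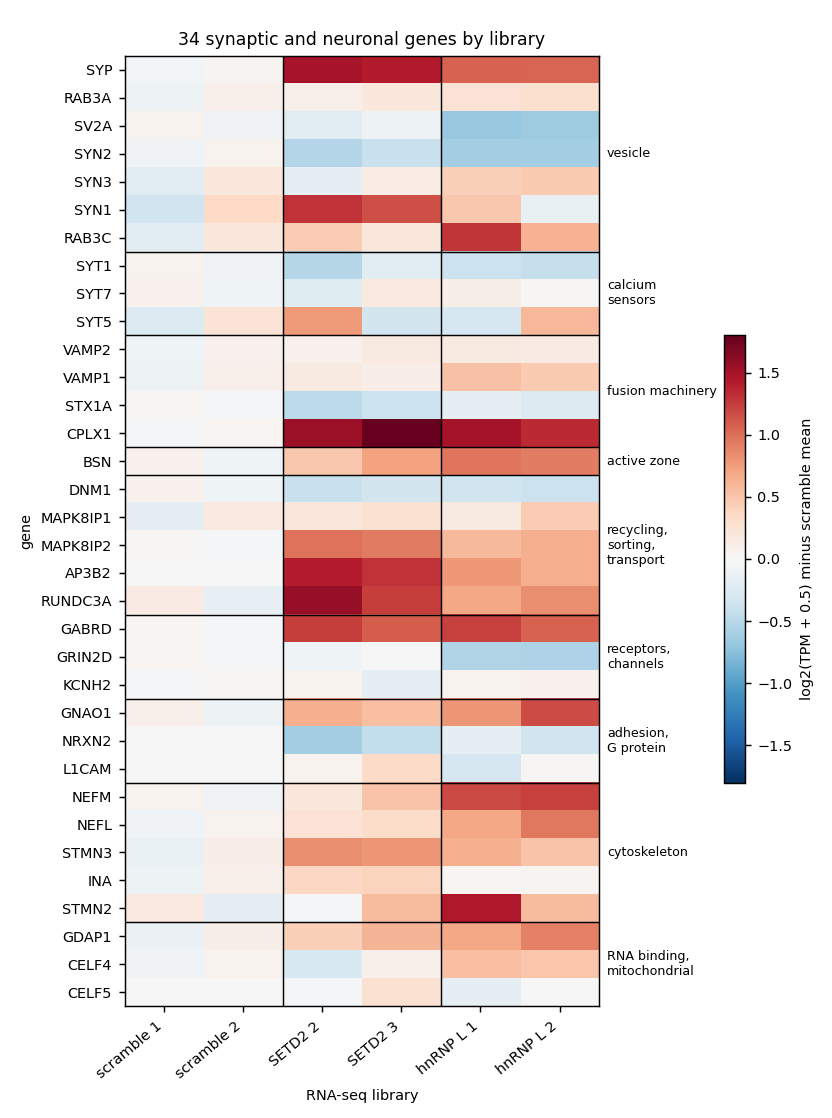
The heat map plots log2(TPM + 0.5) minus the mean of the 2 scramble libraries for each of the 34 tested genes (rows, grouped by role) in each of the 6 libraries (columns, named by siRNA and replicate number), red above scramble and blue below. SYP and CPLX1 are among the genes that are red in all 4 depleted libraries. NEFM is deeper red with hnRNP L than with SETD2 siRNA, and SV2A is blue with hnRNP L siRNA.

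The more widely expressed relatives of these genes were set beside them, since TPM are scaled by length. None of 13 relatives was called by limma in any of the 3 comparisons. At most 5.01% of all tested genes were called in any 1 direction, so 0 of 13 is close to the share of all genes. At an unadjusted p under 0.05 in limma, 3, 3 and 2 of the 13 passed in SETD2 against scramble, hnRNP L against scramble and hnRNP L against SETD2 siRNA. Of all tested genes 13.1%, 28.4% and 28.5% did. The log2 fold changes of the relatives lay between -0.34 and 0.30 after SETD2 depletion and between -0.45 and 0.28 after hnRNP L depletion. SYPL1, the synaptophysin-like protein of non-neuronal vesicles, had 59.6 and 53.8 TPM under scramble siRNA, 43.9 and 45.5 TPM under SETD2 siRNA and 40.3 and 42.4 TPM under hnRNP L siRNA. It was above SYP in every library and lowest in the depleted ones. Its log2 fold change after hnRNP L depletion, -0.45 (SE 0.10, adjusted p = 0.0262 in limma), passed the p threshold but not the fold threshold. AP3B1, the ubiquitous AP-3 β subunit, stayed between 22.4 and 29.5 TPM, and MAPK8IP3 between 13.2 and 17.9 TPM. RUNDC3B ranged from 4.31 to 7.19 TPM, and GNAI2, a ubiquitous inhibitory G protein subunit, from 31.6 to 38.6 TPM. VIM, the vimentin filament of many cell types, had 649.5 and 820.3 TPM under scramble siRNA and 830 to 941 TPM in the depleted libraries. SNAP23, which takes the place of SNAP25 outside neurons and was picked out here with its values already known, was at 37.3 to 50.4 TPM, while SNAP25 stayed at or under 0.33 TPM. The quantification could have split reads between close relatives.

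**Figure D5:**
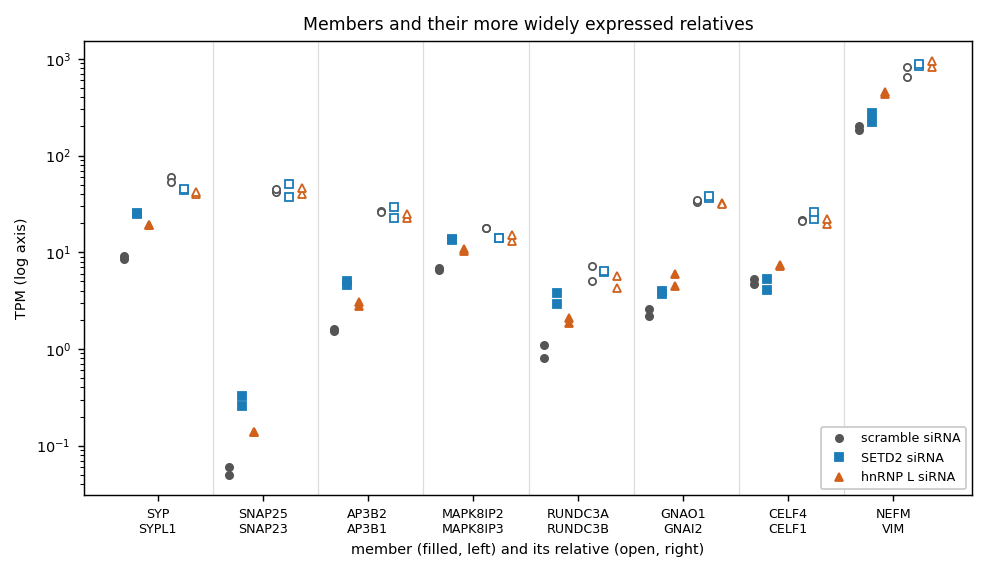
TPM on a log axis for 8 of the genes (filled, left of each pair) and a more widely expressed relative (open, right), with 2 libraries for scramble, SETD2 and hnRNP L siRNA each. The filled symbols of SYP, AP3B2 and MAPK8IP2 are higher in the depleted libraries than in scramble, and in the scramble libraries every open symbol lies above its filled partner.

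Wider lists of synaptic genes were also drawn up with earlier results known. Of 46 further genes of the release machinery 32 were tested and none was called by limma in any comparison, where at most 5.01% of all tested genes were in 1 direction. At an unadjusted p under 0.05 in limma, 4, 6 and 4 of the 32 passed, against 13.1%, 28.4% and 28.5% of all tested genes. The median log2 fold changes of the 32 were -0.01 in the SETD2 and -0.09 in the hnRNP L comparison with scramble. In the 4 further lists together, 124 of 206 genes were tested. After SETD2 depletion 0 were called by limma in either direction, where 0.0552% of all tested genes were upregulated and 0.0491% downregulated. At an unadjusted p under 0.05 in limma, 17 of the 124 passed, against 13.1% of all tested genes. After hnRNP L depletion 4 of the 124 were upregulated and 6 downregulated. With hnRNP L against SETD2 siRNA 3 were higher and 6 lower. These shares, 3.23% and 4.84% after hnRNP L depletion and 2.42% and 4.84% between the depletions, stand beside 1.75% and 5.01%, and 2.15% and 4.69%, of all tested genes, and all but the first are close to them. Their medians were -0.02 in the SETD2 and -0.12 in the hnRNP L comparison with scramble, on the log2 scale. In the vesicle and recycling list (33 of 42 tested), SYNJ2, a phosphoinositide phosphatase of endocytosis, was upregulated after hnRNP L depletion (log2 fold change 0.75, SE 0.13, adjusted p = 0.0103) and the clathrin adaptor subunit AP2A2 was downregulated (log2 fold change -0.73, SE 0.10, adjusted p = 0.00484). Among channels and receptors (34 of 80 tested), HCN3 was upregulated (log2 fold change 0.60, SE 0.15, adjusted p = 0.0399) and SCN4B (log2 fold change -0.96, SE 0.18, adjusted p = 0.0146), the nicotinic receptor subunit CHRNA5 (log2 fold change -0.94, SE 0.11, adjusted p = 0.00273) and CACNA2D2 (log2 fold change -0.61, SE 0.14, adjusted p = 0.0308) were downregulated.

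The axon and adhesion list, with 25 of 38 genes tested, held the largest fitted log2 change among the tested genes of these 4 lists. NLGN2, a postsynaptic adhesion molecule of inhibitory synapses, had 24.7 and 21 TPM under scramble siRNA, 19.2 and 22 TPM under SETD2 siRNA and 5.98 and 6.83 TPM under hnRNP L siRNA. It fell after hnRNP L depletion (log2 fold change -1.75, SE 0.13, adjusted p = 0.000513) and lay near scramble with SETD2 siRNA. The axonal proteins MAPT, which encodes tau, and GAP43 were upregulated after hnRNP L depletion (log2 fold changes 0.85, SE 0.14, adjusted p = 0.0102, and 0.71, SE 0.14, adjusted p = 0.0182) and the adhesion gene NRXN3 was downregulated (log2 fold change -0.71, SE 0.18, adjusted p = 0.0405). MAPT and GAP43 were also higher, and NLGN2 and NRXN3 lower, with hnRNP L than SETD2 siRNA.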

How the data were processed

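The data are RNA-seq of 293T cells, 2 libraries for each of 3 siRNAs (scramble, SETD2, hnRNP L). The ChIP-seq samples of the series were not analysed here. Per the study's methods, reads were mapped by the authors with STAR 2.6.1c (hg38, Ensembl 96 models). RSEM 1.3.0 then produced the TPM values that the authors deposited, 1 per gene and library. The authors' own differential tests used edgeR on counts. TPM keep no counts, so no counting error can be given.

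Values were transformed to log2(TPM + 0.5). All 16300 genes with a mean of at least 0.5 TPM were fitted in R 4.3.3 by limma 3.58.1, on all 6 libraries with a mean for each siRNA, empirical Bayes with a variance trend and Benjamini-Hochberg adjustment over all tested genes. A gene was called if its adjusted p was below 0.05 and its fold change exceeded 1.5. The fit was tested on simulated data. The 44 genes, the wider lists and the marker lists were chosen with earlier results of these data known. The result of 1 marker list is not reported here. All 44 genes are accounted for, the called ones with TPM in every library and the log2 fold changes of both depletions against scramble. Named outside them are SETD2, HNRNPL, REST, relatives of called genes and, from each wider list, at most 4 called genes. Other genes are marked as named after their values were seen, or are markers or overlapping genes.

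Coordinates are of hg38 with GENCODE 44, and promoters are of RefSeq. A match to a DNA motif was sought on both strands, and ACACACAC in spliced transcripts on the sense strand only. Promoters of RefSeq were not matched for MAPK8IP1, RIMS2, GRIN1, GDAP1, CPLX1, SNAP25, SYN3, NRXN2, NEFM, GABRD, RUNDC3A, SCN3B, STMN2, NEFL and SYT7. Alternatives changed the pseudocount, filter, biotypes, scaling, groups fitted, variance trend, fold threshold, replicate block and libraries. Python 3.11.15 with pandas 2.3.3 and Matplotlib 3.10.9 handled tables and plots.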

Additional observations from a re-analysis of the deposited data

How the results depend on the processing

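No called value changed direction under any alternative. Over the 21 called values of 14 genes and their 403 alternatives, the call was kept in 272 and lost in 131, and SYP kept both its calls throughout. Genes of the group upregulated after SETD2 depletion, 5 as reported, were 3 with no filter, with only the 2 groups compared or with no variance trend. They were 2 in TPM rescaled without mitochondrially encoded genes. They were 7, with RUNDC3A and STMN3 added, at a pseudocount of 0.1, a mean TPM of at least 1, or with protein-coding and lncRNA genes only. Of all tested genes 10, 12 and 25 were upregulated in these 3 settings, against 9 as reported. Genes of the group upregulated after hnRNP L depletion, 11 as reported, were 2 with no filter, 4 at a fold change above 2, and 4 to 9 with a library left out. Genes of the group downregulated after hnRNP L depletion, 2 as reported, were 1 with a pseudocount of 1 or only the 2 groups compared, 0 with no filter, either scaling or a fold change above 2, and 0 to 1 with a library left out. For hnRNP L against SETD2 siRNA, the 2 higher genes of the group were 1 with a pseudocount of 1, only the 2 groups or no variance trend, 0 with no filter or a fold change above 2, and 0 to 1 with a library left out. The 1 lower gene became 3 with protein-coding and lncRNA genes only or no fold threshold, 0 with no filter, either scaling, rescaled TPM or a fold change above 2, and 0 to 1 with a library left out. Counts over all tested genes moved too. Those upregulated after SETD2 depletion, 9 as reported, were 4 with no filter, 6 with only the 2 groups or no variance trend, and 5 in rescaled TPM. Those upregulated after hnRNP L depletion, 286 as reported, were 15 with no filter and 112 at a fold change above 2. The cause of these moves was not tested, except that unfiltered fits test 58884 genes and left-out fits have fewer libraries.

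Median log2 values moved beyond the spread between library pairs in a few cases. After SETD2 depletion the median spanned 0.125 to 0.273 with a library left out. After hnRNP L depletion it was 0.148 with no filter and 0.225 to 0.564 with a library left out. For hnRNP L minus SETD2 siRNA, 0.0143 as reported, it was -0.0608 with no filter, 0.123 and 0.128 after median-ratio scaling and quantile normalization, 0.0623 in rescaled TPM, and 0.0117 to 0.0552 with a library left out.

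Scramble and hnRNP L siRNA share the numbers 1 and 2, which were used as a replicate block in a fit without the SETD2 libraries. With this block hnRNP L depletion upregulated 7 genes of the group and downregulated 0. Without the block, the same libraries gave 9 and 1. Of all tested genes 210 were upregulated and 505 downregulated with the block, and 221 and 561 without it in the same libraries. The reported fit, which includes the SETD2 libraries, gave 286 and 816. Across genes, libraries of the same number had deviations correlated at r = -0.126. Crossed numbers in the same libraries, chosen after seeing the data, gave 13 and 2 of the group, and 413 and 993 of all tested genes. SETD2 siRNA shares only number 2 with scramble siRNA, so no paired fit was made for it.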
